A study of Mus musculus with 8 samples.

Results

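CCR6+ lymphoid tissue inducer (LTi) progenitors of mouse bone marrow were compared with the common lymphoid progenitor (CLP), using the 2 CCR6+ and the 2 CLP libraries of an RNA-seq series of 8 libraries. Groups follow the sample labels, and no measured value was used to choose a library. All cells came from the marrow of C57BL/6 mice, an inbred wild-type strain; the labels give neither age nor sex. They also do not say that replicates 1 and 2 were separate mice, and the spread behind each p-value may therefore be partly or wholly technical. CLP were live lineage-negative cells sorted as bearing CD127, Flt-3, Sca1 and c-Kit without integrin α4β7. CCR6+ cells were live lineage-negative cells with CD127, α4β7 and c-Kit, without Flt-3, T1/ST2 and PD-1, and with CCR6 on the surface. The other 4 libraries, 2 of PD-1+ CCR6- cells and 2 of total ChILP (common helper-like innate lymphoid progenitors), came from the same Flt-3-negative, α4β7-positive gate and serve here as reference levels. Before sorting, CLP and ChILP were enriched by lineage depletion, whereas CCR6+ and PD-1+ cells were captured on magnetic beads through α4β7. The route of enrichment therefore differs between CCR6+ cells and CLP and cannot be told apart from the population in any comparison below.

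CLP give rise to B cells, T cells, natural killer cells and innate lymphoid cells (ILC), and carry the gene program that prepares antigen receptor rearrangement. LTi cells are an ILC population that builds lymph nodes and Peyer's patches: they display the lymphotoxin heterotrimer made of the Lta and Ltb products, respond to IL-7 and to IL-23, and migrate towards CXCL13 through CXCR5 and towards CCL20 through CCR6. All helper-like ILC progenitors raise Id2, which binds E proteins such as E2A and blocks them from driving B and T cell fates. LTi cells diverge early from the progenitors of ILC1, ILC2 and other ILC3, which pass through a stage marked by PD-1 and by the transcription factor PLZF (Zbtb16).

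Reads assigned to genes numbered 7685188 and 11363859 in CLP replicates 1 and 2, and 7875507 and 11394107 in CCR6+ replicates 1 and 2, within a range of 7685188 to 13997897 over the series. Levels are given as RPKM (reads per kilobase of transcript, scaled to the size of the library), replicate 1 before replicate 2. They can be compared between genes because they are per length, but between libraries they are scaled by size alone. The median CCR6+ minus CLP change of all genes was -0.36 by limma on log2(RPKM + 1) and -0.09 in the edgeR fit. Levels lower in CCR6+ cells are to be read with this shift. The sort markers Ccr6, Flt3 and Pdcd1 stood as the gate would have them. Ly6a, which encodes the Sca1 asked of CLP alone, was higher in CCR6+ cells. Il1rl1, which encodes the T1/ST2 gated out of CCR6+ cells, was at similar levels in both groups. Their values and those of the other gate genes are given further below. Ccr6 was listed at 0 in both CLP libraries and at 84.2 and 23.6 RPKM in the CCR6+ libraries, and Flt3, the cytokine receptor used to sort CLP, fell from 92.1 and 157 to 7.98 and 6.70 RPKM. Pdcd1, which encodes PD-1, was at 0.823 and 0.319 RPKM in CLP and 0 and 1.10 RPKM in CCR6+ cells. PD-1+ cells held it at 181 and 36.3 RPKM. PD-1+ replicate 2, sorted without surface CCR6, nevertheless held Ccr6 at 8.11 RPKM, close to the 3.84 and 8.21 RPKM of ChILP, whereas PD-1+ replicate 1 was listed at 0. Transcripts of other marrow cells were present in every library, and red cell and neutrophil levels differed between CCR6+ cells and CLP. The 28 red cell genes summed to 11423 and 3936 RPKM in CLP and 84112 and 68836 RPKM in CCR6+ cells. The 29 mature neutrophil genes summed to 5778 and 1469 RPKM against 23639 and 38006 RPKM.

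Of 13619 genes tested, 897 rose in CCR6+ cells against CLP, which is 6.59% of them, and 652 fell, which is 4.79% (edgeR quasi-likelihood test, Benjamini-Hochberg adjusted p under 0.05, 2 libraries against 2). The median log2 fold change of the risen genes was 2.01 and that of the fallen genes -1.41, and over all genes tested it was -0.09. Each adjusted p below comes from this test, and each log2 fold change is CCR6+ minus CLP on its scale, with its standard error (SE). Genes of the neutrophil, red cell and early granule lists made up 30 of the risen and 7 of the fallen genes, which left 867 and 645. As a description without a test, 538 genes (3.95%) had both CCR6+ libraries at least 4-fold above both CLP libraries, and 254 (1.87%) lay as far below. Counts of list members called or separated below are to be read beside these shares over all genes tested. Higher genes were 57.9% of the calls here but 31.0% when limma was run on log2(RPKM + 1), an alternative that differs in its test, values, filter and scaling together and in which the median of all genes moved by -0.26. Which of these accounts for the move was not tested, and changes below are relative to the bulk of genes. Leaving out 1 CLP or CCR6+ library sets 1 library against 2, so a call can be lost while its fold change holds. No named gene that was called changed sign in these fits. Counts of calls that remained, here and below, therefore mix the smaller number of libraries with dependence on a single library. Without CLP replicate 2 only 51 genes rose and 32 fell. Without CLP replicate 1, CCR6+ replicate 1 or CCR6+ replicate 2 there were 526 and 244, 327 and 132, and 347 and 308. Without CCR6+ replicate 2 and PD-1+ replicate 2, the library sorted without CCR6 that held Ccr6 reads, 496 genes rose and 541 fell.

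**Figure D1:**
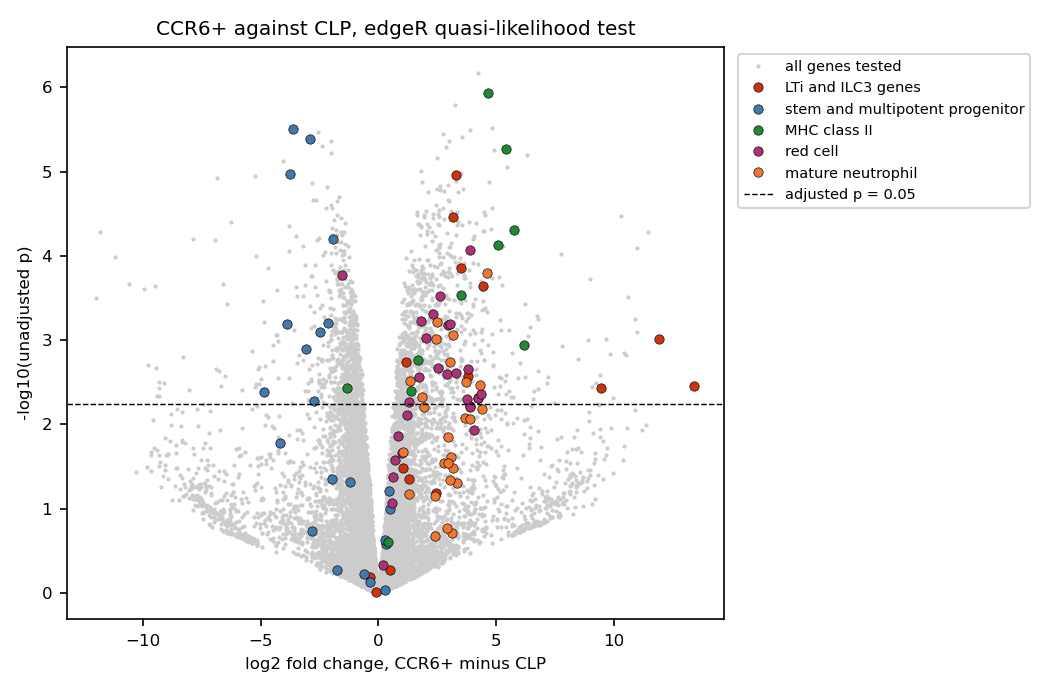
Each point is 1 of the 13619 genes tested, with the fitted log2 fold change of CCR6+ minus CLP on the x axis and -log10 of the unadjusted p on the y axis; 5 gene lists are coloured and the dashed line marks an adjusted p of 0.05. Stem and multipotent progenitor genes lie to the left, while LTi, MHC class II, red cell and neutrophil genes lie mostly to the right, with Ccr6 the rightmost of the coloured points.

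Genes that define LTi cells and ILC3 were mostly higher in the CCR6+ libraries. Of the 15 members tested out of 18 listed, 9 rose and none fell. The median log2 fold change was 3.16, and 8 members were separated by at least 4-fold. Il22, Il17a and Il17f, the effector cytokines of mature ILC3, had too few reads to be tested. Among the receptors, Ccr6 itself was at least 647-fold higher in CCR6+ cells, a bound set against 3 reads over the CLP group (adjusted p = 0.038); its protein was part of the gate, so this rise describes the sort. Cxcr5, the receptor for CXCL13, went from 1.79 and 1.02 RPKM in CLP to 17.8 and 13.1 RPKM in CCR6+ cells (log2 fold change 3.79, SE 0.88, adjusted p = 0.033). ChILP held Cxcr5 at 14.0 and 40.1 RPKM and PD-1+ cells at 63.0 and 10.5 RPKM, so it was not particular to CCR6+ cells. Il23r, which encodes the specific chain of the IL-23 receptor, was listed at 0 in both CLP libraries and stood at 3.05 and 1.27 RPKM, at least 42.5-fold higher (adjusted p = 0.039). In ChILP and PD-1+ cells Il23r did not pass 0.387 RPKM. CCR6+ cells thus had the 2 highest Ccr6 and the 2 highest Il23r levels of the 8 libraries, with no overlap.

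Other risen members of the list were surface receptors and a transcription factor. Batf, an AP-1 family factor, rose from 19.5 and 27.7 to 42.5 and 42.7 RPKM (log2 fold change 1.19, SE 0.26, adjusted p = 0.027). Cd4, carried by part of adult LTi cells, rose from 1.90 and 2.58 to 26.2 and 13.9 RPKM (log2 fold change 3.5, SE 0.51, adjusted p = 0.0098), above all 6 other libraries. Nrp1, the surface receptor neuropilin-1, rose from 1.66 and 1.26 to 9.91 and 13.2 RPKM (log2 fold change 3.31, SE 0.34, adjusted p = 0.0057), and its PD-1+ levels of 7.32 and 7.10 RPKM were also above the ChILP levels of 2.75 and 1.93 RPKM. Ahr, Il1r1, Il17re, Ltbr, Tnf and Tnfsf11 did not pass the test, and Tnfsf11, the RANK ligand gene, was at 0.251 and 3.88 RPKM in CLP and 2.09 and 0.890 RPKM in CCR6+ cells. Of the 9 calls, 3, 1, 3 and 5 remained without CLP replicate 1, CLP replicate 2, CCR6+ replicate 1 or CCR6+ replicate 2, and the later paragraphs give such counts in this order. Nrp1 was the 1 call of the list that remained without CLP replicate 2.

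**Figure D2:**
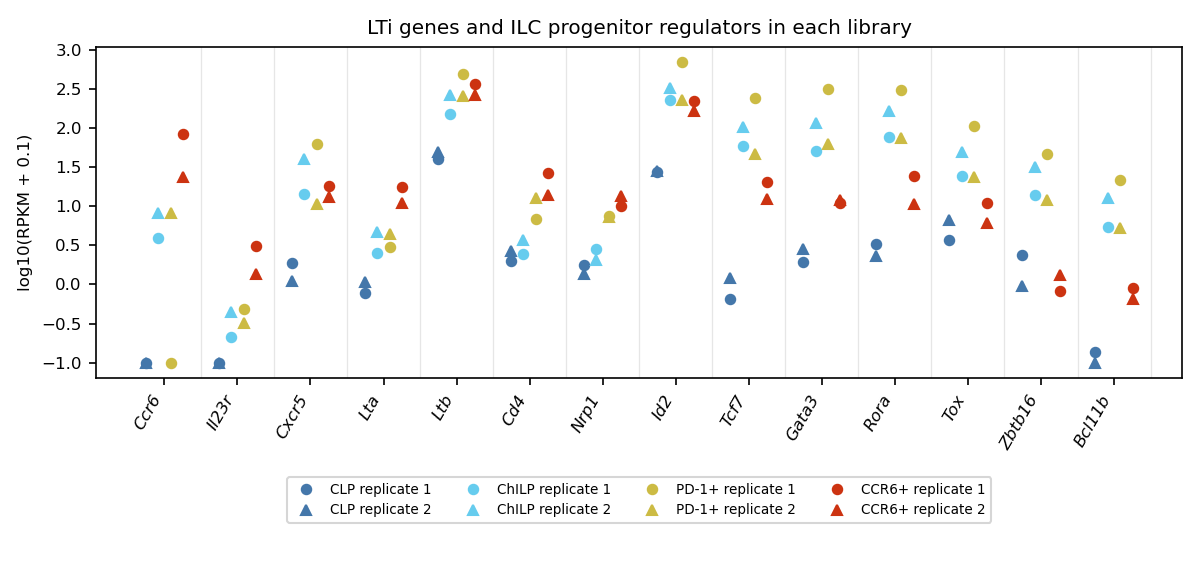
RPKM of 14 LTi and ILC regulator genes in each of the 8 libraries, on a log10(RPKM + 0.1) axis, with circles for replicate 1 and triangles for replicate 2. Ccr6, Lta, Il23r and Cd4 are highest in the 2 CCR6+ libraries, whereas Tcf7, Gata3, Rora, Tox, Zbtb16 and Bcl11b are lower there than in ChILP and PD-1+ cells.

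Both lymphotoxin subunit genes, Lta and Ltb, rose in CCR6+ cells against CLP. Lta, the soluble subunit, went from 0.676 and 0.988 RPKM in CLP to 17.7 and 11 RPKM in CCR6+ cells (log2 fold change 4.43, SE 0.70, adjusted p = 0.011), while ChILP and PD-1+ cells stood between 2.41 and 4.59 RPKM. Ltb, the membrane subunit, went from 39.6 and 49.4 to 363 and 267 RPKM (log2 fold change 3.16, SE 0.38, adjusted p = 0.0068), within the 149 to 494 RPKM seen in ChILP and PD-1+ cells. Ltb was thus abundant in all 3 populations of the α4β7-positive gate, while the Lta levels of CCR6+ cells stood above the other 6 libraries. Of 20 lymphotoxin and TNF family members tested, 5 rose and 1 fell (median 1.49). Tnfrsf25, the DR3 receptor for TL1A, rose from 0.175 and 2.26 to 22.2 and 11.9 RPKM (log2 fold change 4.15, SE 0.93, adjusted p = 0.030). ChILP held Tnfrsf25 at 9.53 and 10.3 RPKM and PD-1+ cells at 21.1 and 9.10 RPKM. Tnfsf14, the LIGHT gene, rose from 8.26 and 3.35 to 24.6 and 13.8 RPKM (adjusted p = 0.041), and Tnfrsf1b, the TNFR2 gene, rose from 14.6 and 6.77 to 28.7 and 43.3 RPKM (adjusted p = 0.030). Cd27 fell from 77.4 and 155 to 10.5 and 9.53 RPKM (log2 fold change -3.18, SE 0.43, adjusted p = 0.0079). With a library left out, 5, 1, 2 and 3 of the 6 calls remained.

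Among 19 NF-kB pathway genes, 4 rose and none fell (median 0.95), beside 6.59% risen and 4.79% fallen over all genes tested. Nfkb2 and Relb encode p100/p52 and RelB, the pair of factors that lymphotoxin β receptor signalling releases in stromal cells. Relb rose from 3.48 and 4.35 to 25.6 and 14.0 RPKM (log2 fold change 2.68, SE 0.53, adjusted p = 0.021) and Nfkb2 from 6.76 and 6.24 to 17.1 and 21.5 RPKM (log2 fold change 1.90, SE 0.46, adjusted p = 0.038). Traf1 and Bcl3, both NF-kB target genes, rose from 1.49 and 0.382 to 10.7 and 7.17 RPKM (adjusted p = 0.027) and from 8.61 and 7.11 to 30.8 and 22.4 RPKM (adjusted p = 0.027). The canonical subunit Rela was at 49.6 and 61.9 RPKM in CLP and 53.4 and 48.2 RPKM in CCR6+ cells (adjusted p = 0.59). With 1 CLP or CCR6+ library left out, the log2 fold changes were 2.17 to 3.05 for Relb and 1.74 to 2.04 for Nfkb2. Those of Traf1 and Bcl3 were 2.85 to 4.94 and 1.83 to 2.31. These ranges give the size of the change only, and calls of this list were lost in such fits. The promoter windows of Ltb and Nfkb2, 250 bases before to 50 bases after the RefSeq start (build GRCm38.p6), are shown because both hold the classical κB site. It was searched as 1 exact string on both strands and is printed in capitals, and in Ltb it lies on the reverse strand. Of 32851 windows, 51 held it (0.155%), and of the windows found for 16 NF-kB genes and 19 lymphotoxin and TNF family genes, Nfkb2 and Ltb held it. A match describes letters in the window and shows no binding.
Ltb, chr17:35194257-35194556, + strand: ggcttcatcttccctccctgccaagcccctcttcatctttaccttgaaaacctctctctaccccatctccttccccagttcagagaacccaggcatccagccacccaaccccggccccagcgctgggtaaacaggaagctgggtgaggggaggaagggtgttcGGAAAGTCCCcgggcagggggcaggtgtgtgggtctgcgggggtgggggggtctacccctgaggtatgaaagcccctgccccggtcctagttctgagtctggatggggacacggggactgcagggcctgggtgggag
Nfkb2, chr19:46305445-46305744, + strand: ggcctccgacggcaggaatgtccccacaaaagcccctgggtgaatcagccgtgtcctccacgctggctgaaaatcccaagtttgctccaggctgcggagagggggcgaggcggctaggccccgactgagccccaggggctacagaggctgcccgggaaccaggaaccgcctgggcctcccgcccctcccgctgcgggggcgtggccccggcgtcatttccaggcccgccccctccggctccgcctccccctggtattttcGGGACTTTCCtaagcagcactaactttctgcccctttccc

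ILC progenitor regulators changed unevenly. All 16 were tested, 8 rose and 1 fell, with a median log2 fold change of 2.45. Id2 went from 27.3 and 27.9 RPKM in CLP to 221 and 164 RPKM in CCR6+ cells (log2 fold change 3.14, SE 0.47, adjusted p = 0.010), against 228 and 327 RPKM in ChILP and 696 and 226 RPKM in PD-1+ cells. Both CCR6+ libraries lay well above both CLP libraries, and the markers Ccr6 and Id2 were thus both present. Tcf7, encoding TCF-1, rose from 0.546 and 1.11 to 20.4 and 12.1 RPKM (log2 fold change 4.61, SE 0.81, adjusted p = 0.015). Rora rose from 3.18 and 2.24 to 24.6 and 10.7 RPKM (log2 fold change 3.03, SE 0.75, adjusted p = 0.039), and Gata3 from 1.86 and 2.74 to 10.8 and 12 RPKM (log2 fold change 2.64, SE 0.70, adjusted p = 0.049). For these 3 genes the ChILP and PD-1+ libraries lay higher still, between 45.9 and 238 RPKM for Tcf7, 73.7 and 307 RPKM for Rora, and 51.1 and 316 RPKM for Gata3. Bcl11b, a T cell and ILC2 factor, had 3 reads in CLP and was 43.5-fold higher in CCR6+ cells (95% counting interval 14.5 to 213, adjusted p = 0.024), yet reached only 0.791 and 0.546 RPKM, against 5.17 to 21.7 RPKM in the other α4β7-positive libraries.

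Zbtb16, which encodes PLZF, did not pass the test: it was at 2.28 and 0.855 RPKM in CLP and 0.732 and 1.23 RPKM in CCR6+ cells (log2 fold change -0.35, SE 0.75, adjusted p = 0.81), whereas ChILP and PD-1+ cells held 11.8 to 46.1 RPKM. Tox, needed for early ILC development, was at 3.64 and 6.59 RPKM in CLP and 11.1 and 5.99 RPKM in CCR6+ cells (adjusted p = 0.35), with the libraries overlapping, against 23.2 to 106 RPKM in ChILP and PD-1+ cells. In the direct comparison of CCR6+ with PD-1+ cells, no gene passed the adjusted threshold in edgeR (lowest adjusted p = 0.331) and 801 had an unadjusted p under 0.05, so the differences between these populations are given as levels only. The log2 fold changes of CCR6+ minus PD-1+ cells were -4.77 for Zbtb16, -3.95 for Gata3 and -3.02 for Tcf7. Nfil3, needed for the earliest ILC progenitors, rose from 9.05 and 6.93 to 22.4 and 38.9 RPKM (adjusted p = 0.013), and its PD-1+ levels were also above ChILP (adjusted p = 0.046). Zbtb7b (ThPOK) rose to 9.79 and 5.24 RPKM and Maf to 1.75 and 1.32 RPKM. Sox4, active in lymphoid progenitors, fell from 36.4 and 88.6 to 1.39 and 5.23 RPKM (log2 fold change -3.87, SE 0.71, adjusted p = 0.017). Of the 9 calls, 5, 0, 2 and 5 remained with a library left out.

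Among E proteins and their inhibitors, Id2 was the 1 call of 9 members tested (median 0.28, and -0.07 on the log2(RPKM + 1) scale). Tcf3, encoding E2A, was at 107 and 125 RPKM in CLP and 70.1 and 53.0 RPKM in CCR6+ cells, without overlap (log2 fold change -0.58, SE 0.20, adjusted p = 0.11). Tcf4 and Tcf12, the other E protein genes, did not pass either (adjusted p = 0.14 and 0.37). Lmo4 and Id1 were higher in both CCR6+ libraries, with 65.3 and 86.4 RPKM and 34.3 and 42.9 RPKM against 38.7 and 40.7 RPKM and 11 and 9.08 RPKM in CLP, with adjusted p of 0.072 and 0.091.

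Genes of V(D)J recombination itself were far lower in the CCR6+ libraries, while most end-joining genes did not pass the test. Of 12 antigen receptor recombination genes, 4 fell and none rose (median -0.66). Dntt, encoding the terminal transferase that adds nucleotides at V(D)J joints, went from 818 and 1449 RPKM to 4.22 and 11.3 RPKM (log2 fold change -6.84, SE 0.71, adjusted p = 0.0058), below the 14.8 to 70.5 RPKM of ChILP and PD-1+ cells. Rag1, a recombinase subunit, was at 5.21 and 5.85 RPKM in CLP and had 1 read in the CCR6+ libraries, a 940-fold ratio of pooled rates with a 95% counting interval of 168 to 37183 (adjusted p = 0.040). Rag2, its partner, fell from 18.4 and 29.7 to 0 and 0.142 RPKM (log2 fold change -7.88, SE 1.03, adjusted p = 0.0073). Xrcc6, which encodes Ku70 of the end-joining machinery, fell from 132 and 212 to 22.8 and 16.1 RPKM (log2 fold change -2.80, SE 0.30, adjusted p = 0.0058). The other end-joining genes Xrcc4, Lig4, Prkdc, Nhej1 and Dclre1c did not pass. With each library left out, 3, 2, 3 and 3 of the 4 calls remained, Dntt and Xrcc6 in every case; Rag1 was called in none of the 4.

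Most B lineage genes did not pass the test. Of 23 tested, 3 fell and 3 rose, beside 4.79% and 6.59% of all genes tested, and 17 were not called (median -0.66). The 3 that fell are Dntt, Rag1 and Rag2, and those that rose include Cd22 and Cd79b, which mature B cells carry at the surface. Cd79b, a signalling chain of the B cell receptor, went from 53.1 and 69.1 to 147 and 126 RPKM (log2 fold change 1.5, SE 0.29, adjusted p = 0.020) and Cd22 from 0.890 and 0.267 to 12.9 and 10.7 RPKM (adjusted p = 0.022). The B cell commitment factor Ebf1 was at 10.5 and 16.6 RPKM in CLP and 1.58 and 4.13 RPKM in CCR6+ cells (log2 fold change -1.90, SE 1.32, adjusted p = 0.40), and Vpreb2, a surrogate light chain gene, at 26.4 and 40.3 against 0.872 and 0 RPKM (adjusted p = 0.16); neither passed the test although the libraries did not overlap. PD-1+ cells held Cd79b at 110.0 and 111 RPKM and ChILP at 40.5 and 22.0 RPKM, and Cd22 was at 5.22 and 9.52 against 0.241 and 1.41 RPKM, which did not pass the test (adjusted p = 0.067). Dntt, Rag1 and Rag2 were far below CLP in all 3 α4β7-positive populations. Of the 6 calls, 4, 1, 2 and 2 remained.

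Stem and multipotent progenitor genes were mostly lower in CCR6+ cells: 10 of 22 fell and none rose. Their median log2 fold change was -2.05, and 7 were separated by at least 4-fold. Cd34, a progenitor surface antigen, went from 90.8 and 167 RPKM to 6.92 and 9.42 RPKM (log2 fold change -3.62, SE 0.31, adjusted p = 0.0047), and Myb, a factor that sustains progenitors, from 70.8 and 112 to 8.74 and 10.6 RPKM (log2 fold change -2.89, SE 0.26, adjusted p = 0.0047). For both genes ChILP kept 53.8 to 65.7 RPKM and PD-1+ cells held 6.15 to 21.3 RPKM, and PD-1+ cells were called lower than ChILP. Flt3 (log2 fold change -3.73, SE 0.38, adjusted p = 0.0057) was part of the gate; it was at 10.3 and 5.10 RPKM in ChILP, so it was low in each Flt-3-negative population. Cd93 fell to 4.58 and 5.43 RPKM from 21.5 and 26.4 RPKM, and the progenitor factors Meis1, Hoxa9 and Satb1 fell to between 0.947 and 4.02 RPKM from between 7.36 and 38.5 RPKM. Mycn fell from 5.69 and 15.7 to 0 and 0.529 RPKM (log2 fold change -4.87, SE 1.22, adjusted p = 0.042), while PD-1+ cells held 26.4 and 5.50 RPKM. Gata2, Tal1 and Lmo2, shared with erythroid and mast cell precursors, were at 23.2 and 28.2, 25.4 and 23.0, and 164 and 123 RPKM in CCR6+ cells, against 29.2 and 22.6, 22.2 and 22.3, and 140 and 160 RPKM in CLP, and did not pass. Without 1 library, 8, 3, 4 and 6 of the 10 calls remained; Cd34, Myb and Flt3 remained each time.

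**Figure D3:**
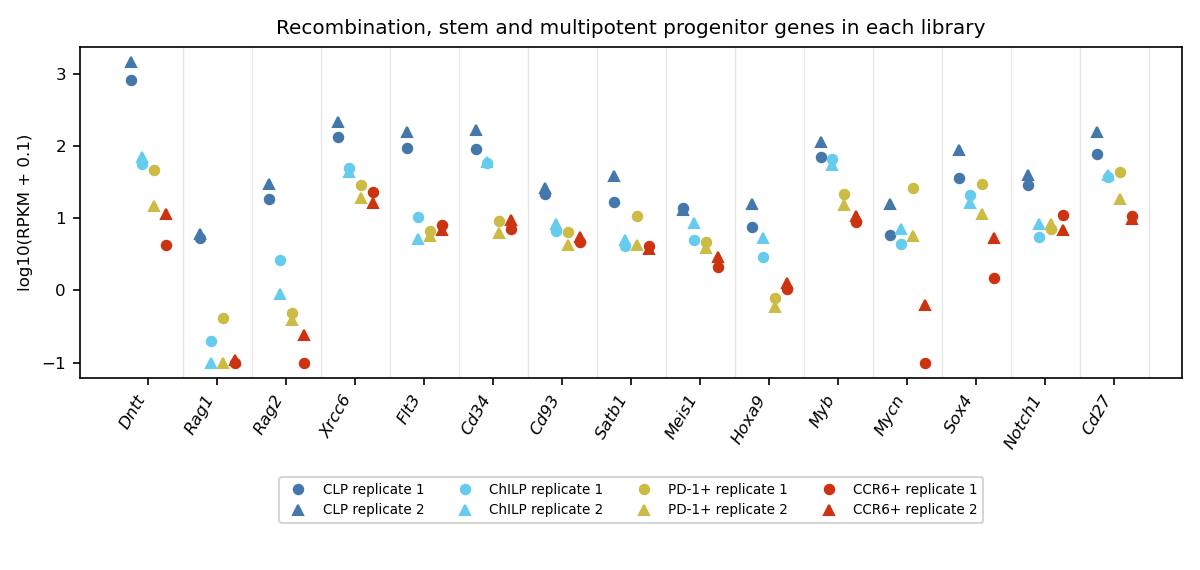
RPKM of 15 recombination, stem and multipotent progenitor genes in each of the 8 libraries, on a log10(RPKM + 0.1) axis, with circles for replicate 1 and triangles for replicate 2. The 2 CLP libraries lie above the 2 CCR6+ libraries for every gene drawn; Dntt spans 818 and 1449 RPKM in CLP to 4.22 and 11.3 RPKM in CCR6+ cells.

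Of the sort markers that both gates share, Il7r and Kit did not pass the test. Il7r, encoding CD127, was at 26.9 and 33.7 RPKM in CLP and 27.5 and 12.2 RPKM in CCR6+ cells (adjusted p = 0.80), and Kit at 28.5 and 31.5 against 17.5 and 6.93 RPKM (adjusted p = 0.32). Of the integrin pair α4β7, Itga4 was at 8.27 and 8.14 against 12.9 and 9.27 RPKM (adjusted p = 0.11). Itgb7 rose from 40.4 and 29.2 to 174 and 237 RPKM (log2 fold change 2.88, SE 0.27, adjusted p = 0.0047). ChILP, also sorted with α4β7, held Itgb7 at 67.5 and 71.3 RPKM. PD-1+ cells held it at 187 and 200 RPKM, above ChILP (edgeR adjusted p = 0.022). Ly6a, which encodes Sca1, a marker asked of CLP alone, rose from 30.1 and 31.4 to 95.0 and 72.4 RPKM (log2 fold change 1.78, SE 0.43, adjusted p = 0.036) and was also higher in PD-1+ cells than in ChILP (39.6 and 62.4 against 4.89 and 10.6 RPKM). Il1rl1, encoding ST2, was at 4.63 and 2.22 RPKM in CLP and 3.95 and 1.84 RPKM in CCR6+ cells (adjusted p = 0.98). Over the 9 gate genes 3 rose and 1 fell, of which 2 remained in each of the 4 fits with a library left out; Ly6a and Ccr6 were lost in all of them.

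MHC class II genes, which present peptides to CD4 T cells and are also carried by some ILC3, had the highest median of the lists at 4.08. Of 10 tested, 8 rose and 1 fell. Cd74, the invariant chain, went from 93.1 and 54.2 RPKM to 2454 and 2682 RPKM (log2 fold change 5.44, SE 0.51, adjusted p = 0.0047), and H2-Ab1 from 71.1 and 73.1 to 1402 and 1515 RPKM (log2 fold change 4.67, SE 0.36, adjusted p = 0.0047). H2-Aa rose from 47.3 and 12.5 to 913 and 747 RPKM (log2 fold change 5.09, SE 0.68, adjusted p = 0.0079) and H2-Eb1 from 18.7 and 4.5 to 601 and 435 RPKM (log2 fold change 5.78, SE 0.73, adjusted p = 0.0069). The transactivator Ciita rose from 0.462 and 0 to 17.4 and 8.74 RPKM (adjusted p = 0.022). The chaperone genes H2-DMb1 and H2-DMb2 rose, H2-DMa did not pass, and of the H2-O subunits that restrain the chaperone H2-Oa rose to 43.0 and 52.4 RPKM. H2-Ob fell from 63.9 and 114 to 30.5 and 25.6 RPKM (adjusted p = 0.039), although it was higher in PD-1+ cells than in ChILP (50.6 and 35.7 against 14.9 and 9.0 RPKM, adjusted p = 0.025). Dendritic cells, macrophages and B cells carry these genes at high level. PD-1+ cells held Cd74 at 1035 and 2100 RPKM and ChILP at 115 and 158 RPKM, and 5 of the 8 risen genes also rose in PD-1+ cells against ChILP, where 34.2% of all 897 risen genes did. Monocyte, macrophage and mature B cell lists moved in the same libraries, and their part in the class II levels was not tested. With libraries left out in the order above, 6, 4, 5 and 6 of the 9 calls remained, Cd74, H2-Ab1, H2-Aa and H2-Eb1 each time.

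The promoter windows of 3 class II genes are printed to show the Y box, the inverted CCAAT element of these promoters, searched as GATTGG on both strands and set in capitals. In H2-Eb1 the second stretch in capitals, CCAATC, is a match on the reverse strand and not in the inverted orientation. All 7 members with a RefSeq window held GATTGG on either strand, as did 16.1% of all 32851 windows. Windows for the remaining 3 members were not used here. H2-DMa, which did not pass the test, and H2-Ob, which fell, are among the 7.
H2-Aa, chr17:34287774-34288073, - strand: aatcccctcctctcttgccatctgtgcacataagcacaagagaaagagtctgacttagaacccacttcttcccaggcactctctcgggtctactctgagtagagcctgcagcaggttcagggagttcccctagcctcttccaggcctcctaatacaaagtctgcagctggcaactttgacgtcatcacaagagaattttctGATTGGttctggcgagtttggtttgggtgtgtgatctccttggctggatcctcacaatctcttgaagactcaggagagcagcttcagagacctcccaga
H2-Eb1, chr17:34305617-34305916, + strand: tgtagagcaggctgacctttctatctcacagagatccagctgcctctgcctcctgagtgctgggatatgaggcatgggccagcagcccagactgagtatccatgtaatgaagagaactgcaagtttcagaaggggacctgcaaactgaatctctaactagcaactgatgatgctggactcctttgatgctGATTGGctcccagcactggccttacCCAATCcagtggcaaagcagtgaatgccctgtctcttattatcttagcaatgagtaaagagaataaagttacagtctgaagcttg
H2-DMb1, chr17:34152941-34153240, + strand: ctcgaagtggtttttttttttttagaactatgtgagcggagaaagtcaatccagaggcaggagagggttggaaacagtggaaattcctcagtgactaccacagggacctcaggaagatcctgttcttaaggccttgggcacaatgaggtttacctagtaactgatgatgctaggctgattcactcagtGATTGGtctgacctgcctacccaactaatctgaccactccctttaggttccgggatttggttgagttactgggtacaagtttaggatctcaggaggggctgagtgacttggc

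Genes of mature marrow cells are set apart here because the route of enrichment differed between CCR6+ cells and CLP. In the red cell list 17 of 28 tested genes rose and 1 fell (median 2.58), and in the mature neutrophil list 9 of 26 rose and none fell (median 3.00). Hba-a1, an α-globin gene whose reads cannot be told from Hba-a2, was at 3112 and 548 RPKM in CLP and 30607 and 25599 RPKM in CCR6+ cells (log2 fold change 4.22, SE 1.09, adjusted p = 0.046), and at 4547 and 566 RPKM in ChILP against 21938 and 25445 RPKM in PD-1+ cells. Bpgm, an enzyme of red cells, rose from 27.2 and 12.7 to 209 and 269 RPKM (adjusted p = 0.0083), whereas Car1, of earlier erythroid cells, fell from 449 and 422 to 138 and 100.3 RPKM (adjusted p = 0.010) and Klf1 and Gata1, erythroid transcription factors, did not pass. The neutrophil gene S100a8 was at 2026 and 500.1 RPKM in CLP and 5577 and 10460 RPKM in CCR6+ cells (log2 fold change 2.95, SE 0.94, adjusted p = 0.084). Lyz2, of neutrophils and macrophages, rose from 866 and 356 to 9770 and 14677 RPKM (adjusted p = 0.010). For Hba-a1, Bpgm, S100a8 and Lyz2, CLP replicate 1 lay above CLP replicate 2 and below both CCR6+ libraries. Of the 18 red cell calls 16, 0, 3 and 8 remained, and of the 9 neutrophil calls 4, 0, 4 and 1.

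The early granule list held calls in both directions, and no eosinophil gene passed the test, while the summed levels of both lists were lower in CCR6+ cells. Prg2 stands in both lists, so its level enters both sums and they are not independent. Csf1r, also in the monocyte list, and Ly86 were among the risen early granule members. Mpo, the myeloperoxidase of early granulocytes, fell from 2816 and 3121 to 328 and 530 RPKM (log2 fold change -2.46, SE 0.42, adjusted p = 0.014), and Elane, neutrophil elastase, from 2522 and 2323 to 510 and 685 RPKM (adjusted p = 0.019). The early granule list summed to 16869 and 15247 RPKM in CLP and 4608 and 4986 RPKM in CCR6+ cells, with 4 members risen and 6 fallen of 17, of which 4, 1, 2 and 5 calls remained with a library left out. The eosinophil list summed to 10835 and 7853 RPKM against 2768 and 2002 RPKM, and none of its 10 genes passed. Prg2, the major basic protein, was at 7859 and 6092 against 1975 and 1480 RPKM (adjusted p = 0.063) and Epx, eosinophil peroxidase, at 562 and 447 against 101 and 91.2 RPKM (adjusted p = 0.057). None of the 15 megakaryocyte and platelet genes passed (summed 863 and 552 against 287 and 588 RPKM), and 1 of 12 mast cell and basophil genes rose, Fcer1a, with no call remaining when any 1 library was left out.

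Monocyte and macrophage genes rose in 13 of 19 cases and fell in none (median 3.27). Fcgr1, the high-affinity IgG receptor, went from 0.541 and 1.06 to 21.3 and 15.3 RPKM (log2 fold change 4.85, SE 0.42, adjusted p = 0.0047). Cx3cr1 rose from 6.27 and 3.59 to 45.2 and 47.1 RPKM (log2 fold change 3.55, SE 0.32, adjusted p = 0.0047), and the complement gene C1qa from 24.2 and 4.17 to 228 and 143 RPKM (adjusted p = 0.019). PD-1+ cells held Fcgr1 at 17.6 and 19.6 RPKM and ChILP at 0.592 and 0.701 RPKM. Of plasma cell and mature B genes 8 of 16 rose (median 2.95). Ms4a1, encoding CD20, had 3 reads in CLP and reached 19.0 and 29.6 RPKM (ratio 436, 95% counting interval 149 to 2118, adjusted p = 0.020). Fcer2a, encoding CD23, also with 3 reads in CLP, reached 26.1 and 20.8 RPKM (ratio 437, interval 149 to 2121, adjusted p = 0.010). Of the risen genes of the 2 lists, 7 of 13 and 5 of 8 also rose in PD-1+ cells against ChILP, beside 34.2% of all 897 risen genes. The monocyte list kept 12, 5, 7 and 8 of its calls with a library left out and the mature B list 3, 0, 2 and 1.

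**Figure D4:**
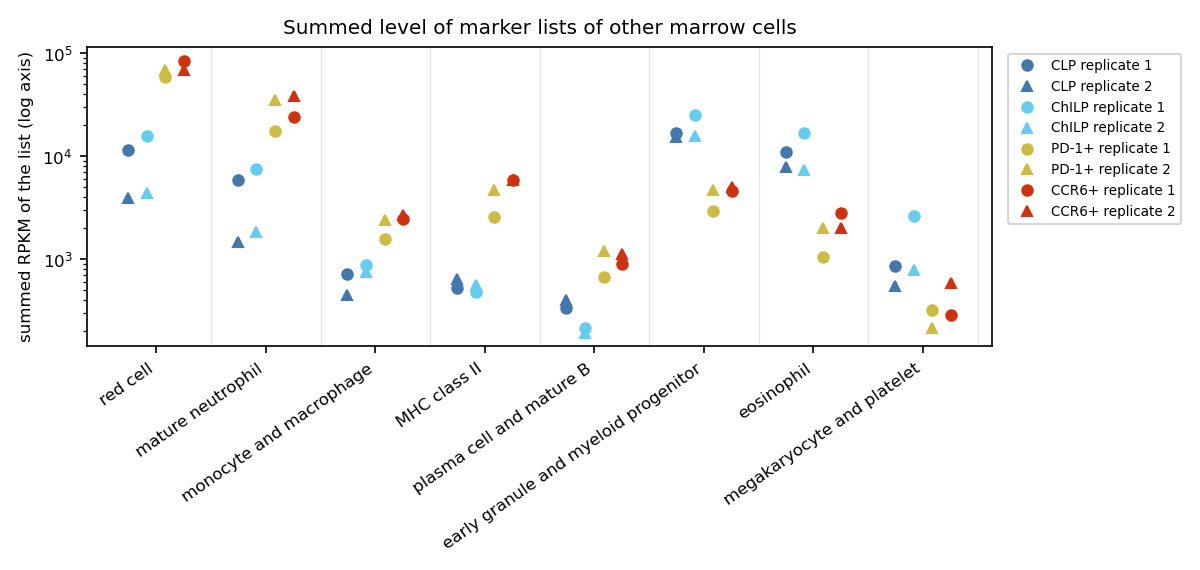
Summed RPKM of 8 marker lists of other marrow cells in each of the 8 libraries, on a log axis, with circles for replicate 1 and triangles for replicate 2. The 4 magnetically captured libraries (PD-1+ and CCR6+) lie above the 4 lineage-depleted ones (CLP and ChILP) for the red cell, neutrophil, monocyte, class II and mature B lists, and below them for the early granule and eosinophil lists. Prg2 stands in both the early granule and the eosinophil list.

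The comparison of PD-1+ cells with ChILP uses none of these 4 libraries and differs by the same route, although all 8 libraries share 1 estimate of spread. In it 380 genes rose (2.79%) and 335 fell (2.46%). Of the 897 genes risen in CCR6+ cells against CLP, 307 also rose there, which is 34.2% of the 897 and 80.8% of the 380. Likewise 209 genes fell in both, 32.1% of the 652 and 62.4% of the 335. Of the risen genes 1 fell in PD-1+ cells against ChILP, and of the fallen genes 3 rose there, H2-Ob and Cox6a2 among them. Irrespective of p, 889 of the 897 and 592 of the 652 had the same sign. The LTi list shared 1 of its 9 risen genes and the ILC regulators 1 of 8. The NF-kB list shared none of 4 and the ILC1 and NK list none of 6. Shares were also 4 of 17 in the red cell list and 3 of 9 in the mature neutrophil list. They were 1 of 10 in the immediate early and stress list and 1 of 7 in the T lineage list. Of the 10 fallen stem genes 2 also fell. A gene not called in PD-1+ cells against ChILP may still have moved there. Gzma, risen in the ILC1 and NK list, had a log2 fold change of 2.92 there (edgeR adjusted p = 0.054). How much of the change in any gene belongs to the route, the population or other cells in the sort cannot be told apart; nor can fewer cells of a type be told from less RNA per cell in these bulk libraries.

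Genes of other ILC and T cell fates rose in part. In the ILC1 and NK list 6 of 25 rose and none fell (median 2.14). Ccl5, a chemokine of cytotoxic lymphocytes, went from 16.7 and 7.08 to 161 and 178 RPKM (log2 fold change 4.16, SE 0.51, adjusted p = 0.0069). Il2rb, the shared IL-2 and IL-15 receptor chain, rose from 4.82 and 2.43 to 33.1 and 26.0 RPKM (log2 fold change 3.35, SE 0.41, adjusted p = 0.0069), and Cd7 from 14.5 and 15.2 to 125 and 73.2 RPKM (log2 fold change 3.08, SE 0.36, adjusted p = 0.0068). Tbx21, encoding T-bet, rose from 0.769 and 0.910 to 5.61 and 7.5 RPKM (adjusted p = 0.016), while Eomes stayed at or under 0.296 RPKM in all 4 libraries and Ncr1 did not pass (0.319 and 2.06 against 3.64 and 4.55 RPKM, adjusted p = 0.16). ChILP and PD-1+ cells held Ccl5 at 205 to 574 RPKM, Il2rb at 16.5 to 44.3 RPKM and Tbx21 at 2.85 to 7.74 RPKM. With a library left out 5, 2, 5 and 5 of the 6 calls remained, Ccl5 and Il2rb each time. In ILC2 genes 3 of 16 rose (median 0.85), Gata3, Rora and Pparg, and each of these calls was lost whichever 1 of the 4 libraries was left out. Rxrg, Arg1 and Il17rb were at 0.0439 and 0, 2.66 and 0.929, and 1.09 and 2.30 RPKM in CCR6+ cells, where ChILP and PD-1+ cells held 13.4 to 98.1, 20.7 to 112 and 11.3 to 61.6 RPKM.

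T lineage genes had a median of 3.5, with 7 of 19 risen and none fallen. Thy1 went from 0.593 and 0.473 to 3.94 and 5.77 RPKM (log2 fold change 3.52, SE 0.67, adjusted p = 0.019) and Skap1, a T cell adaptor, from 0.341 and 0.406 to 4.31 and 5.39 RPKM (adjusted p = 0.013); both were higher in ChILP and PD-1+ cells, at 7.35 to 37.0 RPKM. Cd2 and Cd3g were instead high in both captured populations: Cd3g was at 0.731 and 0 RPKM in CLP, 2.19 and 2.47 in ChILP, 11.5 and 14.9 in PD-1+ cells and 8.87 and 15.1 RPKM in CCR6+ cells (adjusted p = 0.035 for CCR6+ against CLP). Lck, Lat and Cd247, signalling genes already on in CLP, were at 24.1 and 21.5, 16.8 and 26.3, and 5.83 and 5.53 RPKM, each below CLP without overlap, and did not pass (adjusted p = 0.39, 0.31 and 0.18). Of the 7 calls 4, 0, 4 and 3 remained.

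Chemokine receptor and homing genes rose in 12 of 26 cases with none fallen (median 2.52). Ccr8 was listed at 0 in both CLP libraries and at 9.31 and 1.60 RPKM in CCR6+ cells, at least 47.5-fold higher (adjusted p = 0.020), and Cxcr6, the receptor for CXCL16, rose from 2.76 and 4.08 to 27.5 and 13.6 RPKM (log2 fold change 2.93, SE 0.71, adjusted p = 0.037). ChILP held Ccr8 at 12.4 and 15.1 RPKM and PD-1+ cells at 28.9 and 7.56 RPKM. Gpr183, the oxysterol receptor that positions ILC3, rose from 4.67 and 4.65 to 20.3 and 20.0 RPKM (adjusted p = 0.0083). Ccr2, Cxcr2 and Ccr1 rose as well and are also carried by monocytes and neutrophils; Ccr9, which guides cells to the gut, was at 5.68 and 7.56 against 5.98 and 3.58 RPKM (adjusted p = 0.90). Of these calls 6, 3, 7 and 6 remained. In the cytokine receptor list 11 of 36 rose and 1 fell (median 0.67), the fall being Flt3. Il2rg, the common γ chain, rose from 48.2 and 102 to 170 and 146 RPKM (adjusted p = 0.037). Csf1r, Csf3r and Csf2ra, the receptors of myeloid growth factors, rose to 119 and 130, 30.1 and 49.6, and 167 and 298 RPKM. In this list 4, 3, 7 and 4 of the 12 calls remained. Cd160, an inhibitory receptor, was listed at 0 in CLP and at 9.38 and 3.14 RPKM in CCR6+ cells, at least 123-fold higher (adjusted p = 0.019), the 1 risen gene among 18 inhibitory and costimulatory receptors, beside the fall of Cd27; 1, 0, 1 and 2 of these calls remained.

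Notch genes gave 2 rises and 1 fall of 15 (median -0.20), beside 6.59% risen and 4.79% fallen over all genes tested. Notch1, the receptor of T cell commitment, fell from 29.1 and 40.0 to 11.1 and 6.72 RPKM (log2 fold change -1.61, SE 0.32, adjusted p = 0.021) and was at 5.36 to 8.26 RPKM in ChILP and PD-1+ cells. Notch2 rose from 8.77 and 7.73 to 17.0 and 14.3 RPKM (adjusted p = 0.011), and Dtx1, listed at 0 in CLP and ChILP, stood at 3.07 and 3.31 RPKM, at least 101-fold higher (adjusted p = 0.012). Notch2 and Dtx1 also rose in PD-1+ cells against ChILP. Left-out libraries kept 3, 0, 2 and 2 of the 3 calls. Among BCL-2 family genes 4 of 17 rose (median 1.06). The survival gene Bcl2l1 went from 25.5 and 16.1 to 116 and 134 RPKM (adjusted p = 0.012) and is also abundant in erythroid cells. PD-1+ cells held Bcl2l1 at 91.8 and 145 RPKM and ChILP at 40.1 and 16.9 RPKM. Bcl2 was at 9.74 and 9.74 against 13.5 and 8.26 RPKM (adjusted p = 0.54), where ChILP and PD-1+ cells held 23.7 to 67.6 RPKM. Of the 4 calls 2, 0, 1 and 1 remained.

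Proliferation genes moved in both directions, with 4 of 40 risen and 6 fallen, beside 6.59% and 4.79% of all genes tested. Their median was 0.24 and turned to -0.09 on the log2(RPKM + 1) scale. The fallen ones act at the entry into and start of DNA replication. Cdk4 went from 395 and 482 to 119 and 114 RPKM (log2 fold change -1.57, SE 0.19, adjusted p = 0.0068), Cdk6 from 38.7 and 37.7 to 8.98 and 6.83 RPKM (adjusted p = 0.026), and Ccnd2, Mcm3, Mcm4 and Mcm6 fell with log2 fold changes of -1.37, -1.01, -0.88 and -0.94. The risen ones were Mki67, Birc5, Ube2c and Ccnd1, at log2 fold changes of 1.29, 0.99, 1.17 and 1.49; Ccnd1 went from 6.79 and 6.16 to 16.9 and 12.1 RPKM. Of the 10 calls 7, 0, 1 and 2 remained. Cholesterol synthesis genes gave 1 rise, Fdft1, and 1 fall, Sqle, of 21 (median -0.11), and 1, 0, 0 and 0 of these remained. Plasmacytoid and dendritic genes gave 5 rises and 2 falls of 17 (median 0.90). Irf7 rose from 39.1 and 45.4 to 161 and 176 RPKM (adjusted p = 0.0068). PD-1+ cells held Irf7 at 96.0 and 146 RPKM and ChILP at 31.8 and 24.1 RPKM. Cox6a2 fell from 103 and 162 to 28.0 and 29.9 RPKM (adjusted p = 0.019). Of these 7 calls 3, 1, 2 and 4 remained.

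Immediate early and stress genes, which cell handling can induce, rose in 10 of 23 cases (median 2.27). Fos went from 210 and 178 RPKM in CLP to 1014 and 1705 RPKM in CCR6+ cells (log2 fold change 3.13, SE 0.44, adjusted p = 0.0088), with 337 and 166 RPKM in ChILP and 1061 and 1589 RPKM in PD-1+ cells. Dusp1 went from 115 and 90.4 to 405 and 1283 RPKM (adjusted p = 0.039). Egr1 was at 64.2 and 53.3 against 39.7 and 112 RPKM (adjusted p = 0.58). The list summed to 1161 to 2710 RPKM in the lineage-depleted libraries and 4060 to 7745 RPKM in the captured ones, and the part of handling was not tested. Of the 10 calls 1, 0, 6 and 1 remained.

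Among the largest rises outside the neutrophil, red cell and early granule lists, among genes with at least 10 RPKM in CCR6+ cells, were Ccr6, Apol11a, Dll1, Fcer2a, Ms4a1, Cd2, Lyz1, Batf3, Ccl2, Pla2g7 and Klra2. Dll1, a Notch ligand, had 1 read in CLP and stood at 21.2 and 7.41 RPKM (ratio 1150, 95% counting interval 206 to 45468, adjusted p = 0.0068), with 4.29 to 18.7 RPKM in ChILP and PD-1+ cells, so it was shared by the α4β7-positive gate whatever the route. Apol11a was listed at 0 in CLP and in ChILP, and stood at 11.9 and 23.3 RPKM in PD-1+ and 17.5 and 20.5 RPKM in CCR6+ cells, at least 184-fold above CLP (adjusted p = 0.0069). Batf3, a dendritic cell factor, rose from 0.788 and 0 to 43.9 and 22.4 RPKM (log2 fold change 6.79, SE 1.22, adjusted p = 0.016), with 4.38 and 9.74 RPKM in ChILP and 36.2 and 16.8 RPKM in PD-1+ cells. The monocyte chemokine Ccl2 rose to 37.8 and 76.6 RPKM from 0.812 and 0.509 RPKM (adjusted p = 0.030). PD-1+ cells held Ccl2 at 35.8 and 70.5 RPKM and ChILP at 5.91 and 0 RPKM. Without CLP replicate 2, Apol11a was the 1 of these genes still called.

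The largest falls, by the same rule, were Gm5111, Sstr2, C85492, Myog, Rag2, Tmem121, Dntt, Arpp21, 2610307P16Rik, Myl10, C030034L19Rik and Il12a. Gm5111 was at 25.0 and 57.0 RPKM in CLP and listed at 0 in all 6 other libraries, at least 353-fold lower in CCR6+ cells (adjusted p = 0.012). Sstr2, a somatostatin receptor, was at 21.8 and 43.2 RPKM in CLP, at 2.61 to 9.67 RPKM in ChILP and PD-1+ cells and at 0 in both CCR6+ libraries, at least 319-fold lower (adjusted p = 0.0069). Tmem121 went from 76.5 and 105 to 0 and 1.07 RPKM (log2 fold change -6.94, SE 0.91, adjusted p = 0.0075), while ChILP and PD-1+ cells held 13.1 to 23.6 RPKM. C030034L19Rik stood at 9.90 and 10.9 RPKM in CLP against 0 and 0.372 RPKM in CCR6+ cells (adjusted p = 0.024), and the other 4 libraries held 3.30 to 16.2 RPKM. Myl10, a myosin light chain gene, and Il12a, the p35 subunit of IL-12, fell from 269 and 527 to 4.62 and 3.5 RPKM and from 78.0 and 153 to 2.57 and 2.21 RPKM (adjusted p = 0.0069 and 0.0057), and both were already low in ChILP and PD-1+ cells at 9.73 to 41.5 and 2.81 to 8.87 RPKM. Sstr2, Tmem121, Dntt, Myl10 and Il12a remained called without CLP replicate 2, and the other 7 did not.

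**Figure D5:**
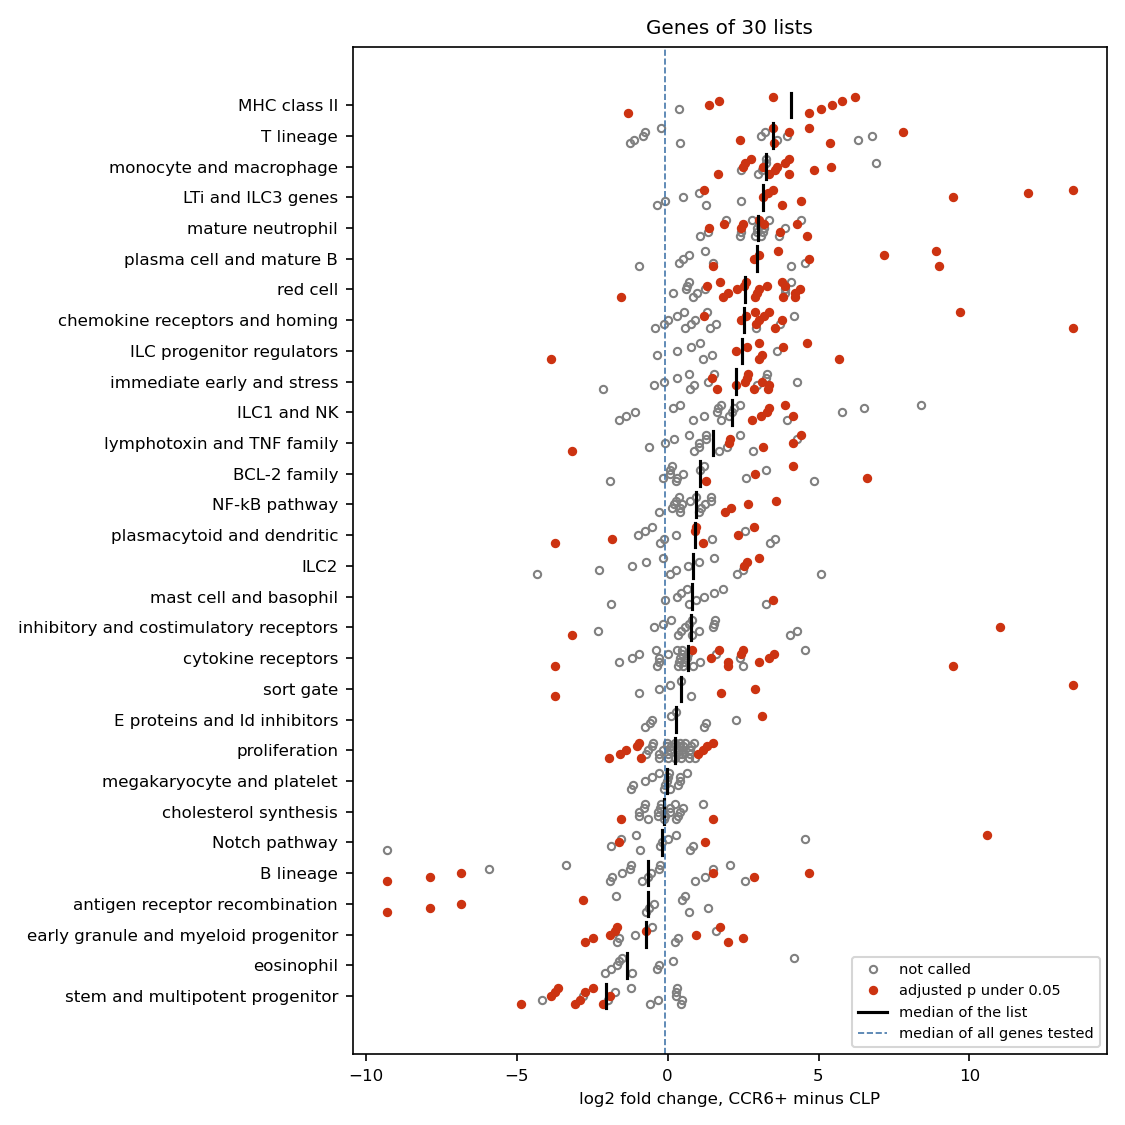
Log2 fold change of CCR6+ minus CLP for the tested genes of 30 lists, ordered by the list's median (black bar), with called genes in red, others open, and the median of all genes tested (-0.09) dashed. MHC class II genes have the highest median at 4.08 and stem and multipotent progenitor genes the lowest at -2.05; fitted values of genes with no read in 1 group are not bounds.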

How the data were processed

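RNA of 8 sorted bone marrow samples was sequenced by Smart-seq2 with 50 bp reads, per the labels' protocols. The authors deposited 1 table per library with the read count and the RPKM of 29257 mm9 transcripts. CASAVA 1.8.4 and Bowtie2 2.2.2 are listed in the submitters' processing notes, without their roles; which program counted reads, whether it used strand, and with which annotation is not given in the sources used here, so antisense and overlapping genes cannot be told apart. The transcript with the largest mean count stood for each of 22878 symbols, and 1106 genes shared all their counts with another gene. No molecular identifiers were used, so counting intervals and bounds (3 reads over the group) cover counting error only.

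The counts entered edgeR 4.0.16 (R 4.3.3) with TMM scaling, filterByExpr (minimum count 10) and 1 quasi-likelihood fit over all 8 libraries, which share the spread estimate. P-values were adjusted by Benjamini and Hochberg over 13619 genes, called under 0.05. The fit had 4 residual degrees of freedom and a common biological coefficient of variation of 0.526. RPKM as deposited by the authors served for levels. Separated genes had all CCR6+ libraries at least 4-fold from all CLP libraries in CPM plus 0.5. DESeq2 1.42.0, limma 3.58.1 on log2(RPKM + 1) and log2(RPKM + 0.1), other filters, transcripts and sets of libraries were alternatives. Only the main edgeR fit of CCR6+ against CLP was also run on simulated counts, and its outcome is not used here. The PD-1+ against ChILP comparison was added after the data had been seen.

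The populations compared and the 30 gene lists were chosen with earlier results of these data known. Genes were named by rule: the gate genes and 13 fixed genes, the 12 largest changes per direction whose libraries do not overlap and whose higher group averages at least 10 RPKM, outside the neutrophil, red cell and early granule lists, and up to 4 members of each list. Further list members were chosen after their values were seen. A pair of genes in these lists is not reported here. Promoter sequences came from RefSeq GRCm38.p6, matched by symbol, and no coordinate was taken from the mm9 tables.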

Additional observations from a re-analysis of the deposited data

How the results depend on the processing

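Against 897 risen and 652 fallen genes, the DESeq2 Wald test called 1644 and 1124, limma 2150 fallen genes on log2(RPKM + 1) and 1936 on log2(RPKM + 0.1), and an adjusted p under 0.01 left 128 and 65. Leaving out 1 library gave 51 to 526 risen and 32 to 308 fallen genes, fewest without CLP replicate 2, and leaving out CCR6+ and PD-1+ replicate 2, chosen after seeing the data, gave 496 risen genes. Size factors of DESeq2 gave 989 and 554 genes, so that 64.1% were higher. Genes separated by at least 4-fold numbered 1312 higher and 969 lower at 2-fold, and 400 lower with a pseudocount of 0.1 CPM. Without 1 library they numbered 626 to 975 higher and 385 to 764 lower. By the rule of separation, leaving out a library can only keep or raise such counts. Of the 103 named genes called, 102 kept their call by DESeq2, 99 on log2(RPKM + 1), and 64, 20, 46 and 56 without CLP replicate 1, CLP replicate 2, CCR6+ replicate 1 and CCR6+ replicate 2. Signs turned in genes that were not called. On log2(RPKM + 1) Il1rl1 was at -0.18 and Pdcd1 at -0.10, with list medians of -0.10 for the gate, -0.068 for E proteins and -0.090 for proliferation; on log2(RPKM + 0.1) these were -0.24, -0.84, -0.24, -0.069 and -0.091. Leaving out 1 library gave -0.94 to 0.61 for Zbtb16, -0.60 to 0.79 for Il1rl1, -0.99 to 0.21 for Il7r, -6.82 to 1.31 for Pdcd1 and -0.18 to 0.85 for the gate median. Of these reversals, Zbtb16 turned without CLP replicate 1 (0.61), Il1rl1 without CLP replicate 2 (-0.41) or CCR6+ replicate 1 (-0.60), Pdcd1 without CLP replicate 2 (-0.20) or CCR6+ replicate 2, and Il7r without CCR6+ replicate 2. With CCR6+ and PD-1+ replicate 2 both left out, Il7r was at 0.22 and Pdcd1 at -6.84. The cause of these moves was not tested. The replicate block gave 702 and 451 genes over 8 libraries and 932 and 451 over 4, with Pdcd1 at -0.98 in the latter. The labels do not say that a replicate number marks a shared mouse, sort or day, so the numbers were not taken as pairs. Deviations of libraries with the same number correlated at -0.01 between CLP and CCR6+ and at -0.11 to 0.09 over all pairs of groups, which cannot exclude pairing.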
